A study of Mus musculus with 20 samples.

Results

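Epidermis of mouse back skin was followed between embryonic day 9 (E9), when the surface ectoderm is still a thin epithelium, and embryonic day 13 (E13), when it has begun to stratify. The comparison holds 6 of the 12 RNA libraries of the series, which has 20 samples in all: 3 libraries of E13 Het epidermis (replicates 1, 2 and 3) against 3 of E9 Het epidermis (replicates 1, 2 and 4). They were chosen by their labelled age, tissue and genotype, and all genes in the files were used.

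Every embryo of the 2 groups carried the {delta}Np63 -GFP KI-Het genotype, a knock-in of green fluorescent protein at the locus of the ΔN isoforms of p63, with 1 allele changed. Cells were freed from the dissected skin by enzymes and sorted for green fluorescence. Total RNA without ribosomal RNA went into SMARTer and NEBNext Ultra kits, both directional. The E13 KO epidermis set beside some results carried the {delta}Np63 -GFP KI-KO genotype, was of the same age as E13 Het and was sorted and prepared in the same way. The 3 dermis libraries set beside a few genes were of E13 and of the {delta}Np63 -GFP KI-Het genotype. The labels do not say whether replicates are separate embryos or litters, so p-values measure only the spread between these samples.

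The embryonic epidermis begins as a simple epithelium with keratins 8 and 18, and becomes a basal layer with keratins 5 and 14, anchored by hemidesmosomes to the basement membrane. A transient outer layer, the periderm, covers it, and Wnt, ectodysplasin and Notch signals pattern its hair placodes and upper layers. Lin28a is an RNA-binding protein of early embryos that blocks the maturation of let-7 microRNAs. Most let-7 RNAs share a seed, the bases that pair with targets.

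The seed of the let-7 family is in capitals in the mouse mature sequences below, which are shown because Lin28a fell (RefSeq, GRCm38.p6). The last one, let-7j, has another seed than the rest. The microRNAs themselves were not measured in these libraries.
mmu-let-7a-5p: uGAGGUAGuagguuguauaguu
mmu-let-7c-5p: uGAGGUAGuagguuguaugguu
mmu-let-7g-5p: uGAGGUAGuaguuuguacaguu
mmu-let-7i-5p: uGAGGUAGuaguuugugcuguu
mmu-let-7j: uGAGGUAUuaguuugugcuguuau

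Counts assigned to genes came to 3952643, 7777808 and 5588226 in the E13 libraries, against 6479564, 5435094 and 4119169 in the E9 libraries, and genes with a count to 10765, 16016 and 14245 at E13, against 13182, 13610 and 12642 at E9. E13 replicate 1 thus had the fewest genes detected. The correlation of log2 levels was 0.860 to 0.934 between E13 libraries, 0.884 to 0.948 between E9 libraries and 0.742 to 0.872 between an E13 and an E9 library. Some libraries stood apart from their group in single sets of genes. E13 replicate 3 was high in Krt8, Krt18, imprinted growth genes and immediate early genes, E13 replicate 2 in Col1a1 and Col3a1, and E9 replicate 4 in Myh6 and low in posterior Hox genes. Results that rest on these libraries are given with and without them below. Of 184 named genes with a position, 31 overlap another annotated gene. Among the genes with values in the text, overlaps are found for Anxa2, Bmp4, Boc, Ccnd1, Col7a1, Dnmt3a, Dst, Gpc3, Greb1l, Hic1, Igf2, Igf2bp1, Irx2, Itgb4, Lrig1, Mest, Msx1, Myh6, Nr6a1, Plec, Ppp2r2c, Rnf43, Six4, Tcf7, Tet3, Tln2, Wnt3, Wnt7b and Zfp750. Since no source used here states how strand was handled, reads of the partner could enter the counts of these genes. Reads of Krt8, Krt18, Gapdh, Ldha, Pgam1 and Hsp90aa1 can be split with near-identical pseudogenes, and their levels are uncertain to that degree.

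Levels are given as CPM, a gene's count relative to the scaled total of its library, and serve to compare libraries for 1 gene, not genes with each other. A gene was called when the Benjamini-Hochberg adjusted p of edgeR's quasi-likelihood test was under 0.05, and a log2 fold change is E13 minus E9, given with its standard error (±). Of 13052 genes tested, 7.29% were called, 4.77% as higher and 2.53% as lower at E13. At least 8-fold differences were found for 148 genes that rose and 63 that fell, and at least 32-fold differences for 79 that rose and 31 that fell. The median log2 fold change was 1.71 among the genes that rose, -1.45 among those that fell and -0.0019 over all genes tested. At E9, 37 of the genes that rose had no count in any of the 3 libraries, and at E13 the same held for 5 of the genes that fell. The 3 E13 and 3 E9 libraries did not overlap for 29% of all genes tested, 15% higher at E13 and 13.9% lower. Genes named for their fold or p were chosen from those without overlap, so that for them it is no further result.

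**Figure D1:**
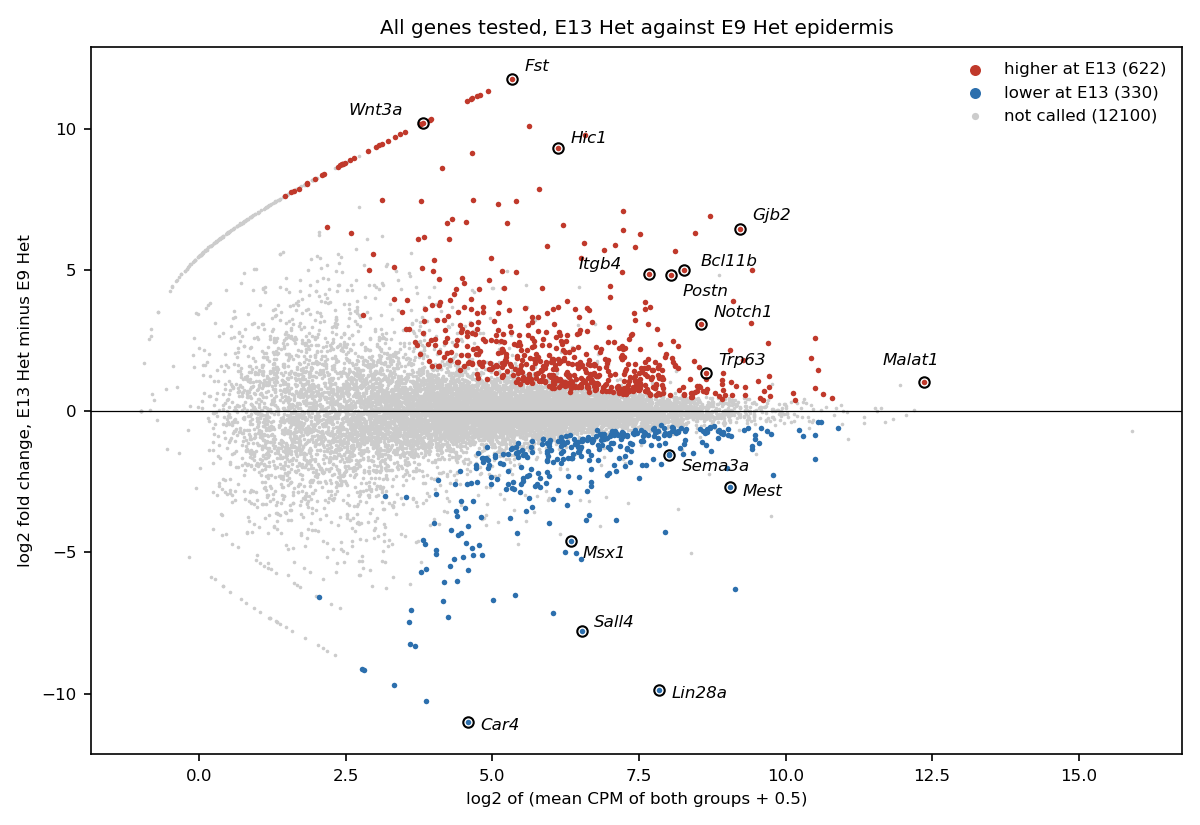
Each point is 1 of the 13052 genes tested, placed by the log2 of its mean CPM over both groups plus 0.5 (horizontal axis) and its log2 fold change, E13 Het minus E9 Het (vertical axis), with called genes in red (622 higher at E13) and blue (330 lower) and some named genes circled. The line of points along the upper edge is made of genes without a count at E9, whose fitted value depends on depth and is no measure of size.

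The 4 genes set as markers of the change moved far beyond the spread between libraries. Gjb2, the gap junction protein connexin 26, had 1167, 1009 and 1365 CPM at E13, against 12.2, 15.5 and 11.9 CPM at E9 (log2 fold change 6.48 ± 0.27, adjusted p = 2.19e-08). Itgb4, the β4 integrin of hemidesmosomes, had 486, 397 and 298 CPM at E13, against 10.6, 14.4 and 15.3 CPM at E9 (log2 fold change 4.88 ± 0.25, adjusted p = 3.25e-08). Bcl11b, a zinc-finger transcription factor of the epidermis also known as Ctip2, had 639, 624 and 522 CPM at E13, against 28.5, 13.4 and 12.6 CPM at E9 (log2 fold change 5.01 ± 0.29, adjusted p = 4.65e-07). Every E13 library lay far above every E9 library for these genes. Lin28a went the other way, with 0, 0.528 and 0.739 CPM at E13, against 412, 419.6 and 538 CPM at E9 (log2 fold change -9.87 ± 0.59, adjusted p = 2.84e-06), so that E13 replicate 1 held none of it and the other two E13 libraries under 1 CPM. Trp63 itself, which encodes p63, was present at both ages, with 574, 654 and 493 CPM at E13, against 300.5, 237 and 131 CPM at E9 (log2 fold change 1.36 ± 0.24, adjusted p = 0.00305), and was not called in the fit of all 12 libraries (adjusted p = 0.189). The Trp63 groups did not overlap. Since the cells were sorted for green fluorescence from the p63 locus, its presence at both ages was set by the sort. Its level may depend on the sort as well.

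**Figure D2:**
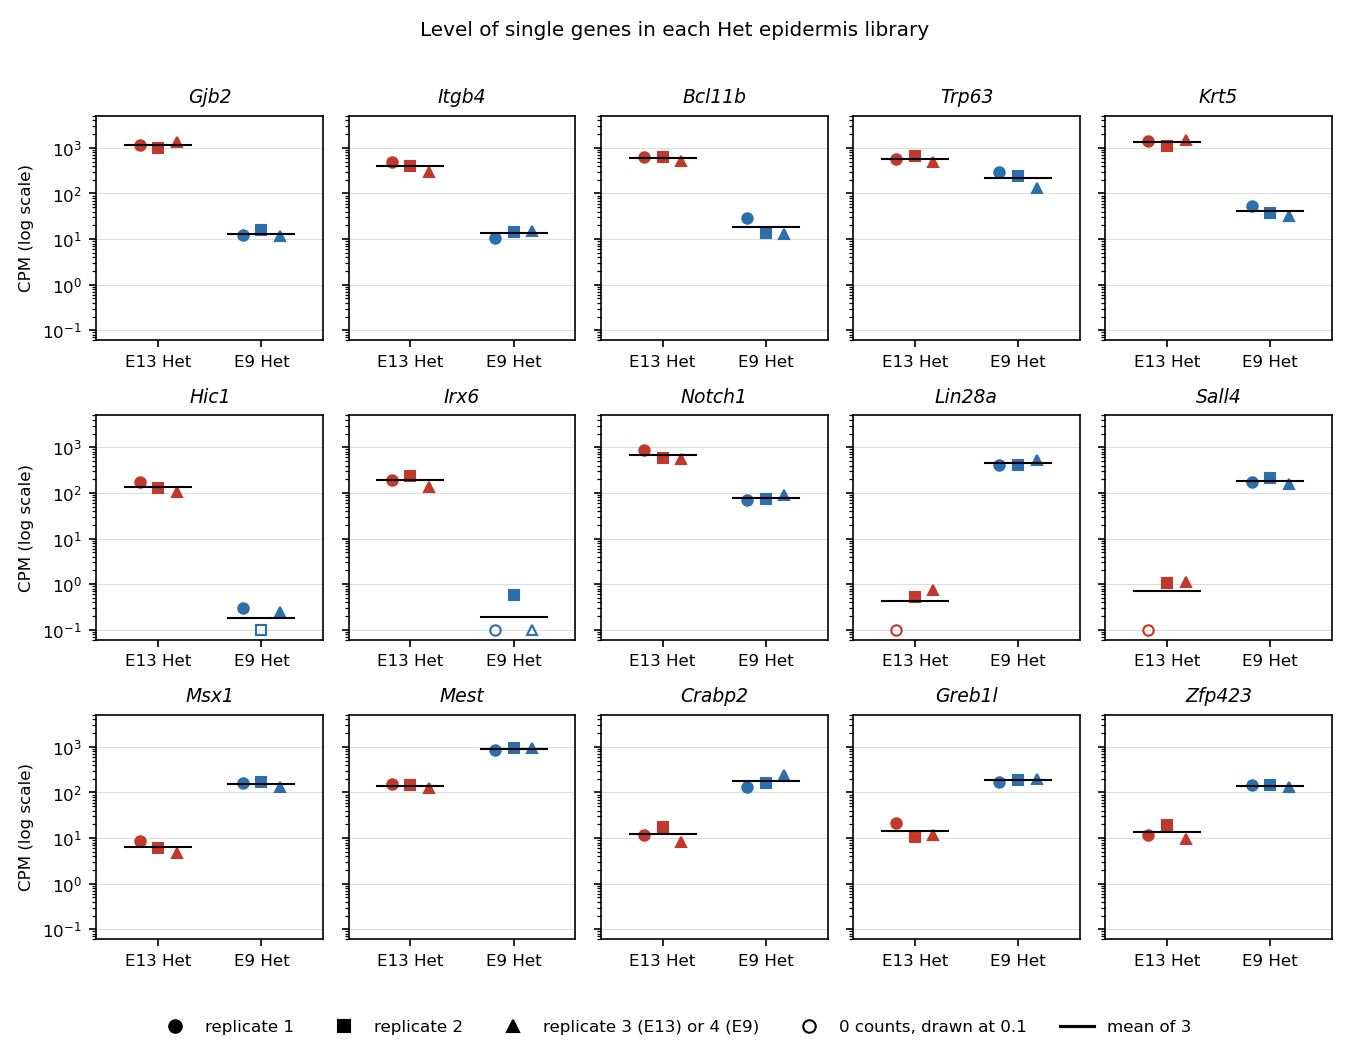
Level of 15 genes in each library, in CPM on a log axis, with E13 Het (red) left of E9 Het (blue), 1 symbol a replicate, lines at the mean of 3, and open symbols for libraries without a count, drawn at 0.1. The E13 and E9 libraries do not overlap in any of the 15 panels, and the distance is smallest for Trp63. For genes named by fold or p, lack of overlap was a condition of choice. Over all genes tested, 29% do not overlap.

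Basal keratin and hemidesmosome genes rose in most cases. Of the 9 tested genes of basal keratins and hemidesmosomes, 7 were called higher (77.8%, against 4.77% over all genes tested). Lower were 0 (0 at an unadjusted p under 0.05, 0 by DESeq2 and 0 by limma voom), and the median log2 fold change was 4.88. Krt5, the basal type II keratin, had 1428, 1104 and 1470.1 CPM at E13, against 52.9, 36.6 and 32.9 CPM at E9 (log2 fold change 5.02 ± 0.32, adjusted p = 5.78e-06). Krt14, the partner of Krt5, had 1044, 877 and 569 CPM at E13, against 5.66, 14.2 and 0 CPM at E9 (log2 fold change 6.92 ± 1.43, adjusted p = 0.0379), and was not called without E9 replicates 1, 2 or 4 or E13 replicates 1, 2 or 3 (adjusted p 0.0684 to 0.154), nor without both E13 replicate 1 and E9 replicate 4 (adjusted p = 0.135). Krt15, another keratin of the basal layer, had 276, 285 and 234 CPM at E13, against 0.153, 0.192 and 14.6 CPM at E9 (log2 fold change 5.88 ± 1.22, adjusted p = 0.0324), and was not called without E9 replicates 1 or 2 or E13 replicates 1, 2 or 3 (adjusted p 0.0532 to 0.101), nor in the fit of the 6 libraries alone or without a filter on low counts (adjusted p 0.0594 to 0.0751), with a log2 fold change of 10.43 without E9 replicate 4. The E13 libraries were the higher ones for all 3 keratins, and E9 replicate 4 held no Krt14 but most of the Krt15 found at E9.

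Col17a1, the transmembrane collagen of hemidesmosomes, had 321, 345 and 224 CPM at E13, against 6.58, 3.07 and 0 CPM at E9 (log2 fold change 6.41 ± 0.90, adjusted p = 0.00369), with a log2 fold change of 7.43 without E9 replicate 1. The cytoplasmic plaque proteins rose less, Dst with log2 fold change 1.26 and Plec with log2 fold change 1.11 (adjusted p = 7.15e-04 and adjusted p = 9.18e-04). Itga6, the partner of Itgb4, did not pass the test with 386, 280.4 and 241 CPM at E13, against 197, 165 and 196 CPM at E9 (log2 fold change 0.70 ± 0.21, adjusted p = 0.0561), and was called without E13 replicate 3 (log2 fold change 0.81, adjusted p = 0.0358), and Cd151 had log2 fold change -0.56 (adjusted p = 0.372).

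Among 21 tested basement membrane genes 3 rose (14.3%, against 4.77% over all genes tested) and 4 fell (19%, against 2.53%). The median log2 fold change was 0.12. In this list, 1 was lower without E9 replicate 4 and 2 were lower without E9 replicate 2 or E13 replicates 1 or 2. Those that rose make anchoring structures of skin. Lama3, the α3 chain of laminin-332, had 335, 423 and 331 CPM at E13, against 6.27, 6.71 and 0.247 CPM at E9 (log2 fold change 6.28 ± 0.65, adjusted p = 4.51e-04). Col7a1, the collagen of anchoring fibrils, had 150.1, 102 and 76.1 CPM at E13, against 7.04, 2.68 and 6.18 CPM at E9 (log2 fold change 4.36 ± 0.44, adjusted p = 3.15e-05). Fras1, an extracellular matrix protein that holds embryonic epidermis to dermis, had 1961, 2061 and 2593 CPM at E13, against 802, 815 and 799 CPM at E9 (log2 fold change 1.45 ± 0.13, adjusted p = 1.03e-05). The groups did not overlap for any of these 3. Frem1, a matrix partner of Fras1, moved the opposite way with 20.2, 39.9 and 26.8 CPM at E13, against 115, 118 and 70.7 CPM at E9 (log2 fold change -1.80 ± 0.36, adjusted p = 0.00641), and Hspg2, the proteoglycan perlecan, had log2 fold change -0.65 (adjusted p = 0.0202), and was not called without E9 replicates 2 or 4 or E13 replicates 1 or 2 (adjusted p 0.0697 to 0.0931), nor in the fit of all 12 libraries, without both E13 replicate 1 and E9 replicate 4 or in the 6 libraries alone without E9 replicate 4 (adjusted p 0.0767 to 0.169).

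Gap junction and desmosome genes rose in part. Of 8 connexins tested, 3 were higher (37.5%, against 4.77% over all genes tested). Gjb6, connexin 30 and the neighbour of Gjb2 on chromosome 14, had 184, 182 and 189 CPM at E13, against 2.45, 2.11 and 4.45 CPM at E9 (log2 fold change 5.98 ± 0.31, adjusted p = 3.25e-08). Gja1, connexin 43, had 958, 632 and 573 CPM at E13, against 423, 318 and 312 CPM at E9 (log2 fold change 1.04 ± 0.21, adjusted p = 0.00665), and was not called without both E13 replicate 1 and E9 replicate 4 or in the 6 libraries alone without E9 replicate 4 (adjusted p 0.0768 to 0.0824). No library of 1 group reached into the other for either gene. Of 11 desmosome genes 5 were higher (45.5%, against 4.77% over all genes tested). With fewer libraries, 3 were higher without E9 replicate 2. Dsp, the plaque protein desmoplakin, had 2264, 1817 and 2413 CPM at E13, against 655, 568 and 546 CPM at E9 (log2 fold change 1.88 ± 0.15, adjusted p = 5.31e-06), and Pkp3, plakophilin 3, had log2 fold change 2.28 (adjusted p = 2.50e-04). Dsg3, a desmosomal cadherin of the basal layer, had 89.9, 34.5 and 38.8 CPM at E13 and no count at E9, at least 258-fold higher from 3 counts over the group (adjusted p = 0.00121). Perp, a p63 target of desmosomes, had 439, 432 and 363 CPM at E13, against 190.03, 193 and 69.3 CPM at E9 and did not pass the test (adjusted p = 0.313).

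The 250 bases before the start of 4 genes are printed because Gjb2 and Gjb6, both on chromosome 14, rose together, while Bcl11b rose and Lin28a fell (RefSeq, GRCm38.p6, bases 5′ to 3′ on the gene's strand). Each of the 4 printed windows holds a motif match, whereas those of Krt5, Krt14, Notch1 and Irx4 held none. Windows of Hic1, Irx2 and Postn, not printed, also held matches, and a further Postn window held none. For Bcl11b, Lin28a, Krt14, Irx2 and Irx4 the start used lies inside the annotated gene. The same is true of a window each of Hic1 and Postn. Such windows do not precede the outermost start of their gene. The motifs searched in them on either strand, in which N is any base, were GCCNNNGGC of AP-2 factors, AACNNGTT of grainyhead factors, CATGNNNNNNCATG, TATAAA and CCAAT. Capitals mark the matches, which in the printed windows are of AP-2 or grainyhead letters.
Gjb2 chr14:57104703-57104952 (minus strand): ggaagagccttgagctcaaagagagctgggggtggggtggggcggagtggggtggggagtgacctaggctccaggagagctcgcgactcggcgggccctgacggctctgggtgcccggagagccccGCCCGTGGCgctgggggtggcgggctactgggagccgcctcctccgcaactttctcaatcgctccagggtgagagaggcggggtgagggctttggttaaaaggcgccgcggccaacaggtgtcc
Gjb6 chr14:57133612-57133861 (minus strand): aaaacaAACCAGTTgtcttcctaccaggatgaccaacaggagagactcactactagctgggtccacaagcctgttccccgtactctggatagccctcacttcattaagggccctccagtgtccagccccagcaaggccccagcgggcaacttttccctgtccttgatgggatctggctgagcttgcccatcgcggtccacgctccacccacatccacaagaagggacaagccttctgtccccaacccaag
Bcl11b chr12:108003415-108003664 (minus strand): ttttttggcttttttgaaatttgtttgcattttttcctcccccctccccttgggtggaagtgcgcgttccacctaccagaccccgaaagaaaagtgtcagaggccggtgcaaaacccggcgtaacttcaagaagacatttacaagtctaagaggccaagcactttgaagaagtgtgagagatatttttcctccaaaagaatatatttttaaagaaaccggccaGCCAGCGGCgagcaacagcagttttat
Lin28a chr4:134018817-134019066 (minus strand): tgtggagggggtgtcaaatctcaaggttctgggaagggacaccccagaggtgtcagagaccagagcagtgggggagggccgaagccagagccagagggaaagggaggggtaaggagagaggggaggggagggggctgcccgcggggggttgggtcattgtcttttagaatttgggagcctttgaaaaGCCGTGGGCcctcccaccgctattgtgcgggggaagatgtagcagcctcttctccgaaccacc

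Within 300-base windows, 250 bases before to 50 after a start, the AP-2 letters were present in 35.8% of the 469 genes that rose and have a window, 42.0% of the 238 that fell and 29.8% of the 9613 tested genes with one. The grainyhead letters were present in 4.48%, 5.04% and 4.0% of the same sets. The core pair of p53-family sites, CATGNNNNNNCATG, was present in 1.07% of the genes that rose, 0.42% of those that fell and 0.291% of all, and TATAAA in 13.6%, 11.3% and 8.33%. CCAAT was present in 40.5%, 45.8% and 43.4%, and the E-box CANNTG in 69.3%, 64.7% and 66.9%. For each gene the window richest in G and C was taken. The median over genes was 65.3% G and C in those that rose, 65.8% in those that fell and 62.3% over all, so that called genes of both directions lay above the median over all. A gene with several starts counted as holding letters when any of its windows held them. The number of starts per gene was not taken into account. These shares are descriptions of letters and no test was made.

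Cell junctions of other kinds changed in part. Of 14 cadherins and nectins, 4 rose (28.6%, against 4.77% over all genes tested) and 1 fell (7.14%, against 2.53%). When a library was left out of the fit, 2 were lower without E13 replicate 2 and 3 were lower without E13 replicate 3. Pvrl4 and Pvrl1, the adhesion proteins nectin-4 and nectin-1, rose with log2 fold change 3.33 (adjusted p = 4.29e-05) and log2 fold change 1.90 (adjusted p = 1.06e-04), and Pvrl2, nectin-2, fell with 62.7, 110.5 and 93.5 CPM at E13, against 201, 249.6 and 227 CPM at E9 (log2 fold change -1.34 ± 0.24, adjusted p = 0.00268). The nectin genes thus moved in opposite directions, with no overlap between libraries for any of the 3. Ctnnb1, which encodes β-catenin, had 2157, 1845 and 1613 CPM at E13, against 1089.9, 1001 and 1037 CPM at E9 (log2 fold change 0.84 ± 0.12, adjusted p = 4.50e-04).

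The simple-epithelium keratins gave a split that follows 1 library. Of 16 tested genes of simple epithelium, 1 fell (6.25%, against 2.53% over all genes tested). Cldn6, a tight junction protein of embryonic epithelia, was that gene, with 103, 48.2 and 121 CPM at E13, against 241, 258 and 213 CPM at E9 (log2 fold change -1.39 ± 0.28, adjusted p = 0.00659). It was not called without both E13 replicate 1 and E9 replicate 4 or in the 6 libraries alone without E9 replicate 4 (adjusted p 0.0509 to 0.0609). Krt8 had 74.7, 23.3 and 680.4 CPM at E13, against 337, 419 and 696 CPM at E9 (log2 fold change -0.90 ± 1.13, adjusted p = 0.773), and was called without E13 replicate 3 (log2 fold change -3.36, adjusted p = 0.035). Krt18, its partner, had 32.5, 27.9 and 447 CPM at E13, against 419.9, 430.3 and 451 CPM at E9 (log2 fold change -1.36 ± 1.05, adjusted p = 0.595), and was called without E13 replicate 3 (log2 fold change -3.88, adjusted p = 7.27e-09). E13 replicate 3 held both keratins at the E9 level, while E13 replicates 1 and 2 lay well below every E9 library. Of these genes, 1 was higher without E13 replicate 2 and 5 were lower without E13 replicate 3. Krt8 had 1131, 716 and 906 CPM in E13 KO epidermis. Epcam, a general epithelial adhesion molecule, did not pass the test with 226, 200.2 and 244 CPM at E13, against 252, 259.98 and 283 CPM at E9 (adjusted p = 0.377).

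**Figure D3:**
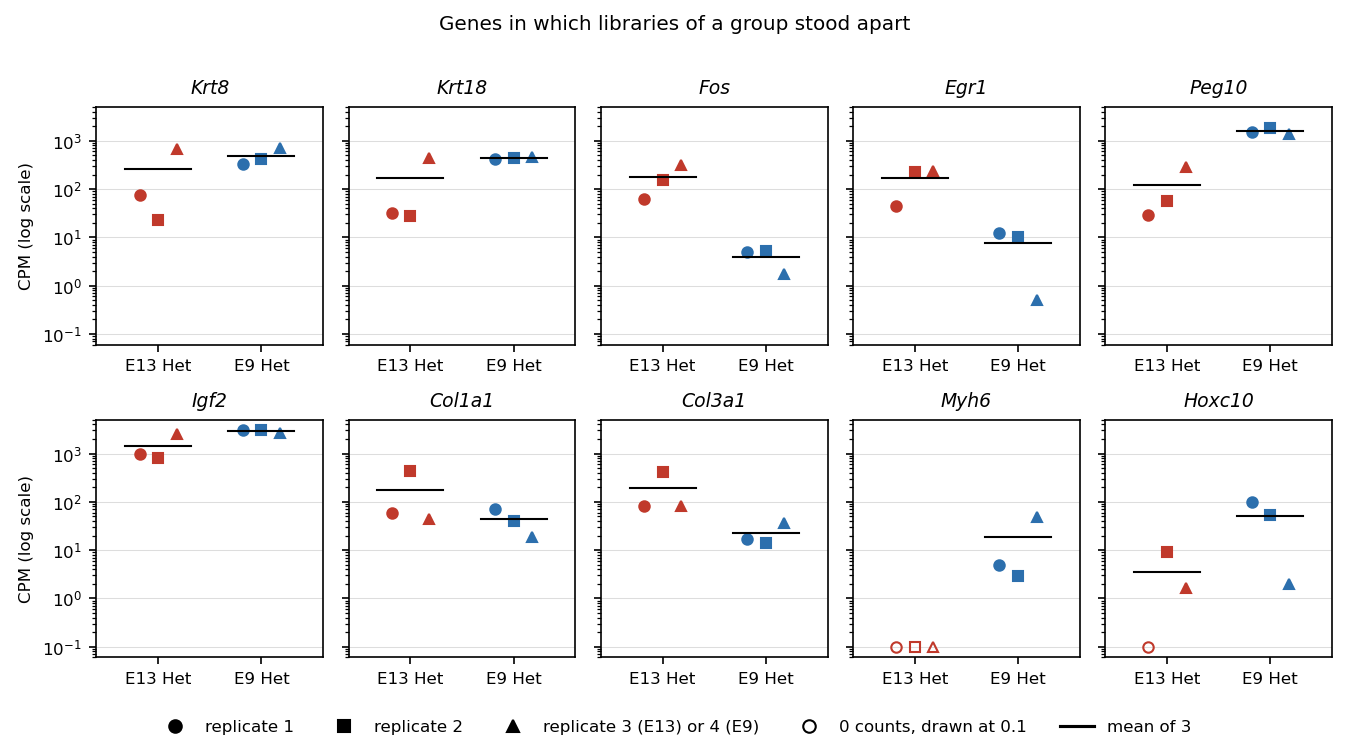
Level of 10 genes in each library, in CPM on a log axis, with E13 Het (red) left of E9 Het (blue), lines at the mean of 3 and open symbols for libraries without a count, drawn at 0.1. E13 replicate 3 (triangle) is the high E13 library for Krt8, Krt18, Peg10 and Igf2, E13 replicate 2 (square) for Col1a1 and Col3a1, and E9 replicate 4 (triangle) is high in Myh6 and low in Hoxc10 and Egr1.

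Some genes of the upper layers rose, most with calls that depended on single libraries. Of 7 tested suprabasal and periderm genes 4 were higher (57.1%, against 4.77% over all genes tested). In this list, 1 was higher without E9 replicates 1 or 4 or E13 replicate 1 and 2 were higher without E9 replicate 2 or E13 replicate 3. Sfn, the protein 14-3-3σ, had 402, 289 and 319 CPM at E13, against 113, 98.7 and 86.6 CPM at E9 (log2 fold change 1.76 ± 0.36, adjusted p = 0.0127), and was not called without E9 replicates 1, 2 or 4 or E13 replicate 1 (adjusted p 0.0509 to 0.0706), nor without a filter on low counts or without both E13 replicate 1 and E9 replicate 4 (adjusted p 0.0585 to 0.164). Tgm1, a transglutaminase of the cornified envelope, had 65.4, 25.4 and 93.3 CPM at E13, against 7.19, 16.1 and 9.89 CPM at E9 (log2 fold change 2.47 ± 0.54, adjusted p = 0.0111), and was not called without E9 replicates 1 or 4 or E13 replicate 3 (adjusted p 0.0534 to 0.0627), nor in the fit of all 12 libraries, with limma voom, without both E13 replicate 1 and E9 replicate 4 or in the 6 libraries alone without E9 replicate 4 (adjusted p 0.0773 to 0.179). Krt4, an internal epithelial and periderm keratin, had 37.2, 4.36 and 3.69 CPM at E13 and no count at E9, at least 62.6-fold higher (adjusted p = 0.0133), and was not called without E13 replicate 1 (adjusted p = 0.0604), nor without both E13 replicate 1 and E9 replicate 4 or in the 6 libraries alone without E9 replicate 4 (adjusted p 0.0658 to 0.078). Sfn and Tgm1 were higher in every E13 library than in any at E9, and Krt4 was mostly in E13 replicate 1. Krt10, the keratin of the spinous layer, had 28.5, 11.5 and 4.43 CPM at E13, against 0.918, 0.958 and 2.23 CPM at E9 and did not pass the test (adjusted p = 0.24).

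**Figure D4:**
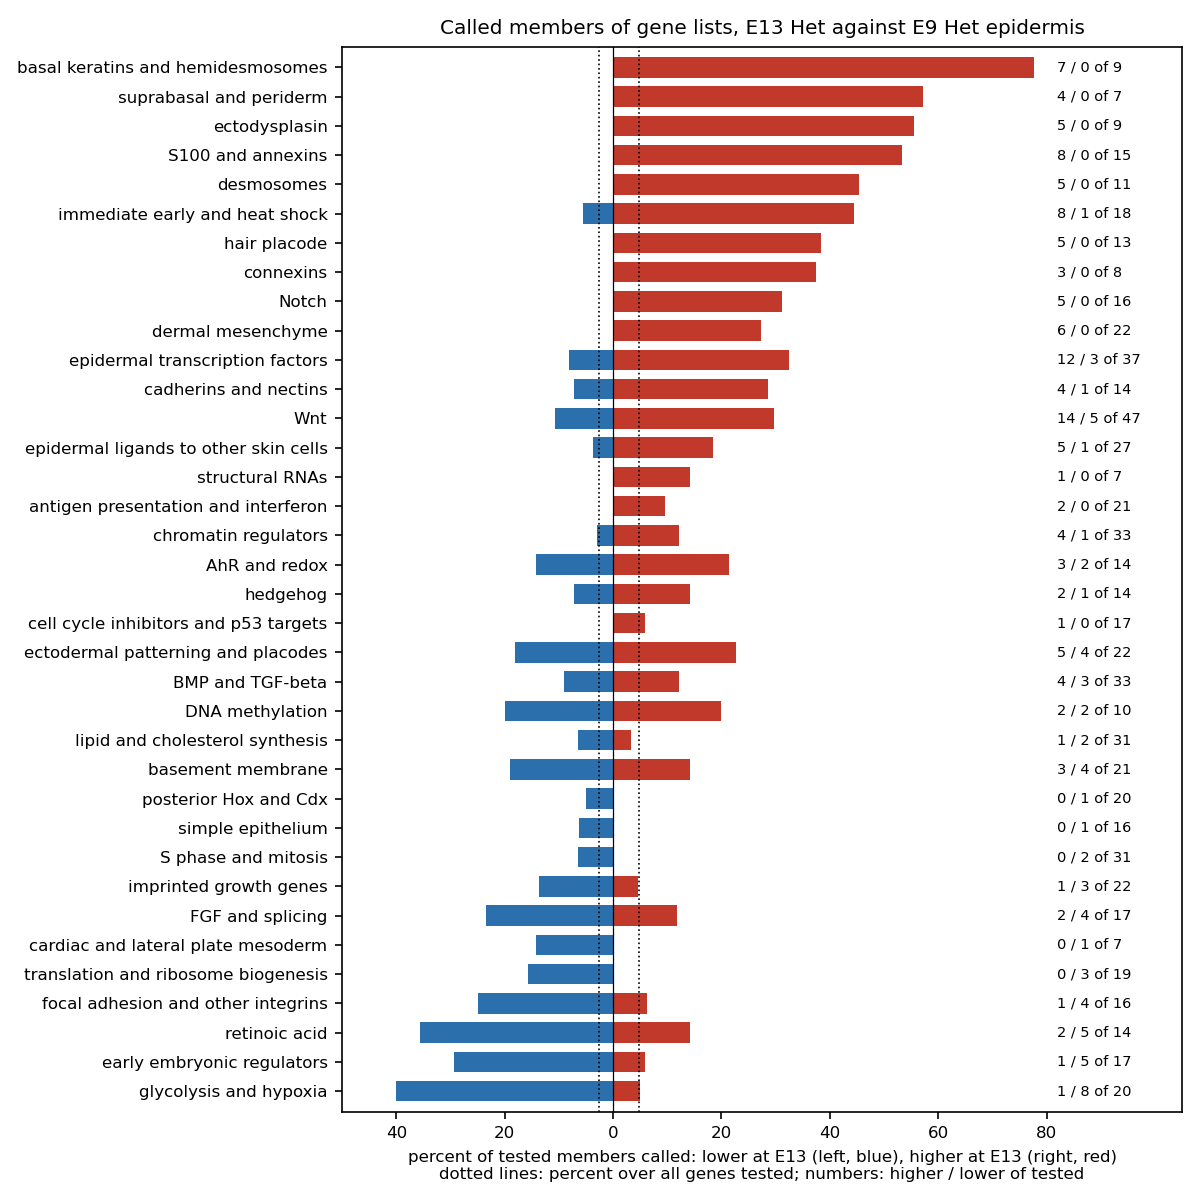
Share of the tested genes of each list that were called higher (red, right) or lower (blue, left) at E13, for lists with at least 7 tested genes and at least 1 called, with the counts at the right and dotted lines at the shares over all genes tested, 4.77% higher and 2.53% lower. Basal keratins and hemidesmosomes head the list with 7 of 9 higher, and glycolysis and hypoxia genes stand at its foot with 8 of 20 lower.

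Among transcription factors of the epidermis more rose than fell. Of 37 tested, 12 were higher (32.4%, against 4.77% over all genes tested) and 3 lower (8.11%, against 2.53%). The median log2 fold change was 0.93. With fewer libraries, 5 were lower without E13 replicate 1. Tfap2b, an AP-2 factor, had 1079.8, 952 and 853 CPM at E13, against 291, 306 and 211 CPM at E9 (log2 fold change 1.84 ± 0.16, adjusted p = 6.49e-06). Satb1, a chromatin organiser downstream of p63 in mouse epidermis, had 499, 489 and 385 CPM at E13, against 110.5, 86.6 and 45.5 CPM at E9 (log2 fold change 2.49 ± 0.26, adjusted p = 5.53e-05). In both genes the lowest E13 library was above the highest E9 library.

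Grhl3, the grainyhead factor of the skin barrier, had 297, 119 and 265 CPM at E13, against 39.5, 52.5 and 32.4 CPM at E9 (log2 fold change 2.45 ± 0.33, adjusted p = 4.38e-04). Zfp750, a factor of terminal differentiation, had 74.4, 41.5 and 30.9 CPM at E13 and no count at E9, at least 241-fold higher (adjusted p = 6.32e-05), and it overlaps Tbcd on the map. Bcl11a, the paralogue of Bcl11b, had 359.9, 317 and 215 CPM at E13, against 4.9, 0.766 and 0 CPM at E9 (log2 fold change 7.11 ± 0.72, adjusted p = 3.78e-04), with a log2 fold change of 9.34 without E9 replicate 1. These 3 were at their lowest or without a count in E9 replicate 4. Tfap2a, an AP-2 factor of the early ectoderm, had 350.4, 222 and 225 CPM at E13, against 317, 312 and 249 CPM at E9 (log2 fold change -0.14 ± 0.20, adjusted p = 0.793), and Klf4, a barrier factor, had 63.7, 87.6 and 119 CPM at E13, against 6.43, 3.83 and 1.48 CPM at E9 (log2 fold change 4.47 ± 1.18, adjusted p = 0.0638), and neither passed the test.

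The homeobox genes Msx1 and Msx2, targets of BMP signals in the early ectoderm, fell. Msx1 had 8.49, 6.08 and 4.62 CPM at E13, against 159, 169 and 133 CPM at E9 (log2 fold change -4.60 ± 0.44, adjusted p = 1.79e-05). Msx2 had 18.2, 15.1 and 25.3 CPM at E13, against 166, 152 and 102 CPM at E9 (log2 fold change -2.84 ± 0.31, adjusted p = 4.97e-05). The groups were far apart in both genes. Zfp423, a zinc-finger partner of BMP signalling, had 11.7, 19.8 and 9.79 CPM at E13, against 142, 145 and 131 CPM at E9 (log2 fold change -3.32 ± 0.35, adjusted p = 3.69e-05).

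The Iroquois homeobox genes, which pattern the ectoderm, rose in both of their clusters. On chromosome 13, Irx1, Irx2 and Irx4 were higher, with log2 fold changes of 3.04 ± 0.41, 2.93 ± 0.23 and 3.09 ± 0.28 (adjusted p = 3.36e-04, adjusted p = 3.45e-06 and adjusted p = 1.22e-05). Irx4 had 411, 367 and 306 CPM at E13, against 34.0, 61.1 and 31.7 CPM at E9. On chromosome 8, Irx5 had 87.4, 115 and 93.3 CPM at E13, against 22.6, 18.8 and 32.7 CPM at E9 (log2 fold change 2.003 ± 0.26, adjusted p = 2.61e-04). Irx6, its neighbour, had 193, 238 and 137 CPM at E13, against 0, 0.575 and 0 CPM at E9 (ratio 1029, 95% counting interval 352 to 4990.3, adjusted p = 6.27e-08). None of the libraries of these 5 genes overlapped, while Irx3, the other gene of the chromosome 8 cluster, did not pass the test at 75.6 to 100.1 CPM at E13, against 54.6 to 60.4 CPM at E9 (adjusted p = 0.107).

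Other patterning genes of the same list fell. Of its 22 tested genes 5 rose (22.7%, against 4.77% over all genes tested) and 4 fell (18.2%, against 2.53%). When a library was left out of the fit, 2 were lower without E9 replicates 1 or 2. Six4, a factor of sensory placodes, had 26.2, 21.5 and 35.5 CPM at E13, against 106, 99.8 and 72.2 CPM at E9 (log2 fold change -1.74 ± 0.31, adjusted p = 0.00258). Tbx3, a T-box factor of limb and mammary ectoderm, had 9.24, 31.7 and 21.2 CPM at E13, against 143, 115 and 51.9 CPM at E9 (log2 fold change -2.30 ± 0.46, adjusted p = 0.00827). Dlx2, a distal-less factor of the early head and surface ectoderm, had 0, 1.59 and 0 CPM at E13, against 53.1, 42.5 and 25.5 CPM at E9 (log2 fold change -6.03 ± 1.26, adjusted p = 0.00884), and was not called without E9 replicates 1 or 2 (adjusted p 0.0512 to 0.0708), with a log2 fold change of -10.73 without E13 replicate 2. In all 3 the E13 libraries lay below the lowest E9 library.

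Of the Hox genes, 0 of 15 tested anterior genes were called (2 at an unadjusted p under 0.05, 0 by DESeq2 and 0 by limma voom). Over all genes tested 7.29% were called. Of 20 posterior Hox and Cdx genes 1 fell (5%, against 2.53% over all genes tested). Cdx2, a caudal factor that sets posterior identity, was that gene, with 0, 0.132 and 0 CPM at E13, against 36.1, 31.0 and 6.68 CPM at E9 (adjusted p = 0.0052). It was not called without E9 replicate 1 (adjusted p = 0.0562). Of these genes, 1 was higher without E9 replicate 4, 0 were lower without E9 replicate 1 and 2 were lower without E9 replicate 4 or E13 replicate 2. Hoxc10 had 0, 8.98 and 1.66 CPM at E13, against 99.9, 53.8 and 1.98 CPM at E9 (adjusted p = 0.167), and was called without E9 replicate 4 (log2 fold change -4.35, adjusted p = 0.0489). E9 replicate 4 was the low E9 library for both. Hoxa7 had 164, 136 and 106 CPM at E13, against 47.6, 32.2 and 3.71 CPM at E9 (adjusted p = 0.0736), and was called without E9 replicate 4 (log2 fold change 1.76, adjusted p = 0.00616).

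Regulators of the early embryo fell in part. Of 17 tested early embryonic regulators 5 were lower (29.4%, against 2.53% over all genes tested) and 1 was higher (5.88%, against 4.77%). The median log2 fold change was -1.12. Beside Lin28a, Sall4, a zinc-finger factor of pluripotent cells, had 0, 1.06 and 1.11 CPM at E13, against 170.1, 216 and 159.8 CPM at E9 (log2 fold change -7.79 ± 0.97, adjusted p = 0.00109). Sall1, its relative in limb and kidney buds, had 0, 1.32 and 1.11 CPM at E13, against 139, 128 and 120.5 CPM at E9 (log2 fold change -7.14 ± 1.11, adjusted p = 0.00404). E13 replicate 1 held neither, and the other E13 libraries held about 1 CPM of each. Arid3b, a DNA-binding factor of early embryos, had 6.74, 25.2 and 20.5 CPM at E13, against 226, 257 and 293 CPM at E9 (log2 fold change -3.86 ± 0.46, adjusted p = 3.78e-04). Igf2bp1, an RNA-binding protein and known let-7 target, had 527, 431 and 460.2 CPM at E13, against 989, 1101 and 998 CPM at E9 (log2 fold change -1.12 ± 0.13, adjusted p = 1.06e-04). Mycn, a growth-promoting factor, had 44.0, 24.3 and 48.8 CPM at E13, against 125, 135 and 111 CPM at E9 (log2 fold change -1.67 ± 0.35, adjusted p = 0.00811). No E13 library reached the E9 range in any of these. Lin28b, the paralogue of Lin28a, and Trim71, another let-7 target, did not pass the test with all 6 compared libraries in the fit. Lin28b had 0, 12.4 and 6.65 CPM at E13, against 152, 123 and 127 CPM at E9 (log2 fold change -4.33 ± 1.39, adjusted p = 0.13). Trim71 had 0, 4.23 and 34.0 CPM at E13, against 169.7, 192 and 281 CPM at E9 (log2 fold change -4.06 ± 1.18, adjusted p = 0.1), and was called without E13 replicates 1 or 3 (log2 fold change -3.52, adjusted p = 0.0423 and -6.46, adjusted p = 0.0014). Pou3f1, a POU factor, was the member that rose, with 14.7, 20.2 and 20.5 CPM at E13, against 1.38, 0 and 0 CPM at E9 (log2 fold change 5.11 ± 1.002, adjusted p = 0.00554), and was not called in the 6 libraries alone without E9 replicate 4 (adjusted p = 0.0835), with a log2 fold change of 9.62 without E9 replicate 1.

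Writers and erasers of DNA methylation moved in both directions. Dnmt3a, a de novo methyltransferase, had 553, 592 and 513 CPM at E13, against 202, 175 and 178 CPM at E9 (log2 fold change 1.58 ± 0.13, adjusted p = 5.31e-06). Dnmt3b, the de novo enzyme of early embryos, had 47.4, 58.1 and 48.6 CPM at E13, against 143, 171 and 200.4 CPM at E9 (log2 fold change -1.73 ± 0.22, adjusted p = 2.22e-04). Tet3, an enzyme that oxidises methylcytosine, had 517, 481 and 407 CPM at E13, against 254, 252 and 254 CPM at E9 (log2 fold change 0.88 ± 0.13, adjusted p = 6.41e-04). The libraries did not overlap in these 3 genes. Tet1 had log2 fold change -1.32 (adjusted p = 0.0312), and was not called without E9 replicates 1, 2 or 4 or E13 replicates 1, 2 or 3 (adjusted p 0.0649 to 0.115), nor without both E13 replicate 1 and E9 replicate 4 (adjusted p = 0.22). In the list of 10 tested, 2 rose (20%, against 4.77% over all genes tested) and 2 fell (20%, against 2.53%). In this list, 1 was lower with any 1 library left out.

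Wnt pathway genes changed in both directions. Of 47 tested, 14 were higher (29.8%, against 4.77% over all genes tested) and 5 lower (10.6%, against 2.53%), and the median was 0.09. With fewer libraries, 2 were lower without E9 replicate 2 and 3 were lower without E9 replicate 1. Among the ligands, Wnt4 had 322, 239.9 and 295 CPM at E13, against 129, 96.4 and 69.3 CPM at E9 (log2 fold change 1.54 ± 0.24, adjusted p = 9.97e-04). Wnt10b, an early marker of hair placodes, had 199.8, 129 and 138 CPM at E13, against 14.1, 17.6 and 5.94 CPM at E9 (log2 fold change 3.62 ± 0.46, adjusted p = 2.48e-04). Wnt3a had 21.2, 31.2 and 29.0 CPM at E13 and no count at E9, at least 148-fold higher (adjusted p = 0.00288). Every E13 library was above every E9 library for these ligands. Wnt3, Wnt7b and Wnt10a also rose, with log2 fold changes of 1.83 ± 0.33, 2.25 ± 0.35 and 3.69 ± 0.50 (adjusted p = 0.00512, adjusted p = 0.00163 and adjusted p = 3.54e-04), and the call for Wnt3 was lost in the fit of all 12 libraries (adjusted p = 0.0905). Wnt6, a ligand of early surface ectoderm, was not called at 157 to 249 CPM at E13, against 199 to 256 CPM at E9 (adjusted p = 0.648).

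Of the Wnt receptors, Fzd10 had 437, 363 and 288 CPM at E13, against 33.5, 28.2 and 12.1 CPM at E9 (log2 fold change 3.87 ± 0.47, adjusted p = 5.82e-04). Fzd6, a frizzled of planar cell polarity, had 476, 344 and 339 CPM at E13, against 117, 118 and 72.5 CPM at E9 (log2 fold change 1.91 ± 0.27, adjusted p = 5.10e-04), while Fzd1 fell with 19.5, 43.2 and 33.1 CPM at E13, against 99.6, 128 and 83.4 CPM at E9 (log2 fold change -1.69 ± 0.34, adjusted p = 0.00627), and was not called without E9 replicate 2 (adjusted p = 0.0508). Fzd6 and Fzd10 were separated between the ages without overlap, and so was Fzd1 in the opposite direction. Kremen2, a receptor of Dkk inhibitors, had 395, 271 and 202 CPM at E13, against 52.8, 48.3 and 28.2 CPM at E9 (log2 fold change 2.74 ± 0.28, adjusted p = 3.19e-05), and was not called in the fit of all 12 libraries (adjusted p = 0.102). Lgr4, an R-spondin receptor, and Rnf43, a ubiquitin ligase that removes frizzleds, rose with log2 fold changes of 1.51 ± 0.24 and 1.72 ± 0.22 (adjusted p = 0.00121 and adjusted p = 2.16e-04), and the call for Rnf43 was lost in the fit of all 12 libraries (adjusted p = 0.144). The nuclear partners of β-catenin moved in opposite directions. Lef1 had 259, 374 and 185 CPM at E13, against 103, 109.8 and 96.5 CPM at E9 (log2 fold change 1.40 ± 0.23, adjusted p = 0.00163). Tcf7l2 had 90.7, 101 and 72.8 CPM at E13, against 30.4, 36.6 and 41.1 CPM at E9 (log2 fold change 1.29 ± 0.24, adjusted p = 0.00404), and was not called in the fit of all 12 libraries (adjusted p = 0.0502), and Tcf7 had 7.99, 19.02 and 17.0 CPM at E13, against 69.8, 71.8 and 88.3 CPM at E9 (log2 fold change -2.37 ± 0.41, adjusted p = 0.00233). Axin2, the common readout of the pathway, was not called at 135 to 229.8 CPM at E13, against 137 to 188 CPM at E9 (adjusted p = 0.722).

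Of 9 tested genes listed under ectodysplasin signalling, which induces hair, tooth and gland placodes, 5 rose (55.6%, against 4.77% over all genes tested). Leaving a library out of the fit, 1 was higher without E9 replicate 1 and 2 were higher without E9 replicate 2. Only the call for Tnfrsf19, the receptor Troy, did not depend on any single library, while each of the other calls in this list did. Tnfrsf19 had 418, 443 and 384 CPM at E13, against 125, 142 and 102 CPM at E9 (log2 fold change 1.75 ± 0.16, adjusted p = 1.03e-05). The receptor gene Edar had 73.7, 71.7 and 32.3 CPM at E13, against 10.4, 16.9 and 16.6 CPM at E9 (log2 fold change 2.02 ± 0.43, adjusted p = 0.00883), and was not called without E9 replicate 1 (adjusted p = 0.0526). Its adaptor gene Edaradd had 115, 72.3 and 62.6 CPM at E13, against 8.26, 8.81 and 21.8 CPM at E9 (log2 fold change 2.69 ± 0.56, adjusted p = 0.00869), and was not called without E9 replicates 1 or 2 (adjusted p 0.0516 to 0.0565), with a log2 fold change of 3.28 without E9 replicate 4. All E13 libraries exceeded all E9 libraries in these genes. Of 13 hair placode genes 5 were higher (38.5%, against 4.77% over all genes tested). Of these genes, 2 were higher without E9 replicate 1 and 3 were higher without E9 replicates 2 or 4 or E13 replicate 1. Dkk4, a Wnt inhibitor of the placode, had 24.7, 14.3 and 8.31 CPM at E13 and no count at E9, at least 78.1-fold higher (adjusted p = 0.0266), and was not called without E9 replicates 1, 2 or 4 or E13 replicates 1 or 2 (adjusted p 0.0515 to 0.0807), nor without both E13 replicate 1 and E9 replicate 4 (adjusted p = 0.106). Sostdc1, a BMP and Wnt inhibitor around placodes, was not called at 107 to 125 CPM at E13, against 116 to 149 CPM at E9 (adjusted p = 0.572).

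In the Notch list 5 of 16 tested genes were higher (31.2%, against 4.77% over all genes tested). In this list, 2 were higher without E9 replicates 2 or 4 and 3 were higher without E13 replicates 1, 2 or 3. Notch1, the receptor of the first suprabasal cells, had 882, 595 and 550.1 CPM at E13, against 70.7, 74.5 and 89.8 CPM at E9 (log2 fold change 3.11 ± 0.23, adjusted p = 2.67e-06), and this call held whichever library was left out. The ligand gene Dll1 had 47.2, 62.4 and 65.6 CPM at E13, against 12.9, 8.62 and 16.3 CPM at E9 (log2 fold change 2.21 ± 0.42, adjusted p = 0.00461), also kept in every such fit, and was not called in the fit of all 12 libraries (adjusted p = 0.133). Jag1, another ligand, had 217, 219.8 and 261 CPM at E13, against 62.4, 47.5 and 71.5 CPM at E9 (log2 fold change 1.94 ± 0.46, adjusted p = 0.0298), and was not called without E9 replicates 1, 2 or 4 or E13 replicates 1, 2 or 3 (adjusted p 0.0751 to 0.14), nor without a filter on low counts or without both E13 replicate 1 and E9 replicate 4 (adjusted p 0.129 to 0.156). Hes1, a Notch target, had 60.2, 48.9 and 75.6 CPM at E13, against 35.5, 17.2 and 11.4 CPM at E9 (log2 fold change 1.52 ± 0.41, adjusted p = 0.0367), and was not called without E9 replicates 2 or 4 or E13 replicates 1, 2 or 3 (adjusted p 0.0508 to 0.144), nor in the fit of the 6 libraries alone, without both E13 replicate 1 and E9 replicate 4 or in the 6 libraries alone without E9 replicate 4 (adjusted p 0.0606 to 0.141). The groups did not overlap in these 4 genes. Jag2, a ligand of the basal layer, had 314, 274 and 244 CPM at E13, against 154, 159.97 and 130.1 CPM at E9 (log2 fold change 0.91 ± 0.34, adjusted p = 0.152) and did not pass the test, and Notch2 and Notch3 were not called (adjusted p = 0.863 and 0.75).

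Among 33 tested BMP and TGF-β genes 4 rose (12.1%, against 4.77% over all genes tested) and 3 fell (9.09%, against 2.53%). The median was -0.06. With fewer libraries, 1 was lower without E13 replicate 2 and 5 were lower without E13 replicate 3. Bmp4, a ligand of the early ventral ectoderm, had 14.2, 6.34 and 11.3 CPM at E13, against 115, 48.7 and 50.2 CPM at E9 (log2 fold change -2.76 ± 0.46, adjusted p = 0.00157). Bmpr1b, a receptor, had 92.7, 119 and 73.9 CPM at E13, against 12.7, 14.6 and 12.6 CPM at E9 (log2 fold change 2.84 ± 0.34, adjusted p = 1.09e-04). Fst, the secreted inhibitor follistatin, had 129.6, 63.02 and 46.6 CPM at E13 and no count at E9, at least 387-fold higher (adjusted p = 0.00201). In each of the 3 the ages were separated, with Bmp4 lower and Bmpr1b and Fst higher at E13.

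The FGF receptors moved in opposite directions. Fgfr2, the epithelial receptor of FGF7 and FGF10, had 865, 1172 and 983 CPM at E13, against 495, 545 and 390.1 CPM at E9 (log2 fold change 1.08 ± 0.16, adjusted p = 5.56e-04). Fgfr1, the receptor of early ectoderm and mesenchyme, had 30.2, 53.5 and 34.7 CPM at E13, against 116, 102 and 155 CPM at E9 (log2 fold change -1.65 ± 0.26, adjusted p = 0.0011). Spry4, an inhibitor that FGF signals induce, had 0, 6.61 and 4.99 CPM at E13, against 87.1, 104 and 50.5 CPM at E9 (log2 fold change -4.32 ± 0.81, adjusted p = 0.0079), with a log2 fold change of -4.93 without E13 replicate 2. The E13 libraries lay wholly above E9 for Fgfr2 and wholly below for the other two. Of 17 tested genes in this list 2 rose (11.8%, against 4.77% over all genes tested) and 4 fell (23.5%, against 2.53%). When a library was left out, 1 was higher without E9 replicate 2 or E13 replicates 2 or 3. Lower were 2 without E9 replicates 1, 2 or 4 or E13 replicate 3. In the hedgehog list of 14, Boc, a co-receptor, had 187, 129 and 90.9 CPM at E13, against 28.2, 29.5 and 29.2 CPM at E9 (log2 fold change 2.23 ± 0.29, adjusted p = 2.33e-04), with no overlap of libraries.

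A carrier of retinoic acid fell, while a receptor rose. Crabp2, which carries retinoic acid to its receptors, had 11.7, 17.6 and 8.13 CPM at E13, against 134, 164 and 244 CPM at E9 (log2 fold change -3.84 ± 0.35, adjusted p = 1.23e-05). Rxra, the shared nuclear receptor partner, had 209, 203 and 255 CPM at E13, against 81.7, 59.4 and 104.9 CPM at E9 (log2 fold change 1.44 ± 0.22, adjusted p = 8.92e-04). The ages did not overlap in either gene. Over the list of 14 tested, 2 rose (14.3%, against 4.77% over all genes tested) and 5 fell (35.7%, against 2.53%). The median was -2.68. Of these genes, 1 was higher without E9 replicates 1 or 4 or E13 replicates 1, 2 or 3, 2 were lower without E9 replicates 1 or 2 and 3 were lower without E9 replicate 4 or E13 replicate 3. Greb1l, a retinoid-linked cofactor of development, had 21.0, 10.7 and 11.6 CPM at E13, against 168, 188 and 199 CPM at E9 (log2 fold change -3.69 ± 0.31, adjusted p = 6.49e-06).

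Signals sent to other skin cells differed too. Cxcl14, a chemokine of skin epithelium, had 1045, 1079 and 986 CPM at E13, against 59.8, 96.9 and 48.5 CPM at E9 (log2 fold change 3.92 ± 0.28, adjusted p = 1.32e-05). Sema3a, a repellent of sensory axons, had 133, 137 and 128 CPM at E13, against 402, 358 and 394 CPM at E9 (log2 fold change -1.54 ± 0.13, adjusted p = 7.09e-06). Sema3f, a repellent of the same family, had 283, 219.97 and 224 CPM at E13, against 61.4, 94.6 and 73.0 CPM at E9 (log2 fold change 1.67 ± 0.20, adjusted p = 9.65e-05). These semaphorins thus moved in opposite directions without overlap. Over 27 tested ligands, 5 rose (18.5%, against 4.77% over all genes tested) and 1 fell (3.7%, against 2.53%). In this list, 3 were higher without E9 replicates 1 or 2 and 2 were lower without E13 replicate 2.

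Glycolysis genes fell in part. Of 20 tested genes of glycolysis and the hypoxia response 8 fell (40%, against 2.53% over all genes tested) and 1 rose (5%, against 4.77%). The median log2 fold change was -0.68. With fewer libraries, 0 were higher without E9 replicates 1 or 4 or E13 replicates 1 or 2. Ldha, lactate dehydrogenase A, had 278, 236 and 179 CPM at E13, against 573, 604 and 667 CPM at E9 (log2 fold change -1.41 ± 0.17, adjusted p = 1.22e-04). Pgam1, phosphoglycerate mutase, had 472, 506 and 473 CPM at E13, against 949, 957 and 927 CPM at E9 (log2 fold change -0.97 ± 0.12, adjusted p = 1.52e-04). Slc2a3, the high-affinity glucose carrier, had 674, 384 and 999 CPM at E13, against 2162, 2040 and 2429.6 CPM at E9 (log2 fold change -1.69 ± 0.30, adjusted p = 0.009), and was not called without both E13 replicate 1 and E9 replicate 4 or in the 6 libraries alone without E9 replicate 4 (adjusted p 0.0702 to 0.103). In none of these did an E13 library reach the E9 range, and Pgk1, Pfkl, Gapdh and Aldoa fell by 1.29, 0.84, 0.70 and 0.69 on the log2 scale. Pdk1, a kinase that restrains pyruvate oxidation, was the gene that rose (log2 fold change 0.85 ± 0.21, adjusted p = 0.0256), and was not called without E9 replicates 1 or 4 or E13 replicates 1 or 2 (adjusted p 0.0755 to 0.123), nor without both E13 replicate 1 and E9 replicate 4 or in the 6 libraries alone without E9 replicate 4 (adjusted p 0.13 to 0.158). Slc2a1, the other main glucose carrier, was not called at 245 to 774 CPM at E13, against 424 to 616 CPM at E9 (adjusted p = 0.897).

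Imprinted growth genes were lower in part. Mest, an imprinted gene of embryonic growth, had 151, 148 and 127 CPM at E13, against 859, 956 and 942 CPM at E9 (log2 fold change -2.69 ± 0.23, adjusted p = 1.36e-05), and Plagl1, an imprinted factor, rose with 155, 157 and 168 CPM at E13, against 52.5, 48.9 and 51.0 CPM at E9 (log2 fold change 1.65 ± 0.32, adjusted p = 0.00564), and was not called without both E13 replicate 1 and E9 replicate 4 (adjusted p = 0.0856). Both were tight within each age. Peg10, an imprinted retroelement-derived gene, had 29.5, 56.0 and 284 CPM at E13, against 1545, 1861 and 1411 CPM at E9 (log2 fold change -3.70 ± 0.90, adjusted p = 0.0633), and was called without E13 replicate 3 (log2 fold change -5.25, adjusted p = 4.44e-04). Igf2, the fetal growth factor, had 958, 822 and 2534 CPM at E13, against 2996, 2999.6 and 2609 CPM at E9 (log2 fold change -0.996 ± 0.40, adjusted p = 0.215), and was called without E13 replicate 3 (log2 fold change -1.72, adjusted p = 7.52e-07). E13 replicate 3 was the high E13 library in both. The list of 22 had 1 higher (4.55%, against 4.77% over all genes tested) and 3 lower (13.6%, against 2.53%). Leaving a library out, 1 was lower without E9 replicates 1, 2 or 4 or E13 replicates 1 or 2, and 9 were lower without E13 replicate 3.

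Genes of cell stress and of the S100 and annexin families rose in part. Of 18 immediate early and heat shock genes 8 rose (44.4%, against 4.77% over all genes tested) and 1 fell (5.56%, against 2.53%). Of these genes, 2 were higher without E9 replicate 2, 4 were higher without E9 replicate 1 or E13 replicate 3 and 5 were higher without E9 replicate 4 or E13 replicate 2. Fosl2, a subunit of AP-1, had 61.9, 115 and 158 CPM at E13, against 16.1, 6.51 and 6.68 CPM at E9 (log2 fold change 3.49 ± 0.42, adjusted p = 1.22e-04). Fos, a gene induced within minutes of stimulation, had 61.7, 152 and 321 CPM at E13, against 5.05, 5.17 and 1.73 CPM at E9 (log2 fold change 5.43 ± 0.87, adjusted p = 0.00879), and was not called without E9 replicates 1 or 2 (adjusted p 0.0504 to 0.0547), nor with limma voom (adjusted p = 0.255), with a log2 fold change of 4.67 without E13 replicate 3. Hsp90aa1, a heat shock chaperone, was the gene that fell, with 785, 1043 and 841 CPM at E13, against 1644, 1722 and 1494 CPM at E9 (log2 fold change -0.86 ± 0.14, adjusted p = 0.00129). E13 replicate 1 was the lowest E13 library for Fos and Fosl2 and replicate 3 the highest. The labels' enzymatic dissociation applies to both ages, and its part in these values was not tested. Of 15 S100 and annexin genes 8 were higher (53.3%, against 4.77% over all genes tested). In this list, 5 were higher without E9 replicate 2 or E13 replicate 3. Anxa2, a membrane-binding annexin, had 454, 361 and 617 CPM at E13, against 59.7, 87.4 and 141 CPM at E9 (log2 fold change 2.32 ± 0.30, adjusted p = 6.67e-04), and Anxa1, a relative with roles in inflammation, had 144, 83.9 and 473 CPM at E13, against 6.12, 6.51 and 0 CPM at E9 (log2 fold change 5.71 ± 1.18, adjusted p = 0.0329), and was not called without E9 replicates 1 or 2 or E13 replicates 1 or 3 (adjusted p 0.05 to 0.126), nor without a filter on low counts, with limma voom or without both E13 replicate 1 and E9 replicate 4 (adjusted p 0.0545 to 0.403).

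The only cell division genes called were lower at E13. Of 31 S phase and mitosis genes 0 rose (0 at an unadjusted p under 0.05, 0 by DESeq2 and 0 by limma voom). Of the same genes 2 fell, 6.45% against 2.53% over all genes tested. DESeq2 called 4 of the list lower and limma voom 5, against 831 and 733 of all 13052 genes tested. Ccnb1, cyclin B1, had 84.7, 123 and 112 CPM at E13, against 193, 177 and 203 CPM at E9 (log2 fold change -0.84 ± 0.23, adjusted p = 0.0381), and was not called without E9 replicates 1, 2 or 4 or E13 replicates 1 or 3 (adjusted p 0.0531 to 0.119), nor in the fit of all 12 libraries, without both E13 replicate 1 and E9 replicate 4 or in the 6 libraries alone without E9 replicate 4 (adjusted p 0.0503 to 0.232). Bub1, a spindle checkpoint kinase, had 37.5, 77.7 and 53.4 CPM at E13, against 122, 121 and 91.0 CPM at E9 (log2 fold change -0.98 ± 0.28, adjusted p = 0.0498), and was not called without E9 replicates 1, 2 or 4 or E13 replicates 1 or 3 (adjusted p 0.06 to 0.178), nor in the fit of the 6 libraries alone, without structural RNAs, without both E13 replicate 1 and E9 replicate 4 or in the 6 libraries alone without E9 replicate 4 (adjusted p 0.053 to 0.0987). The sum of the list's levels was 6641 to 8089 CPM at E13, against 7896 to 8246 CPM at E9, and the ranges overlap. Hic1, a p53-induced transcriptional repressor that overlaps Smg6 on the map, stood apart among the growth regulators with 175, 132 and 108 CPM at E13, against 0.306, 0 and 0.247 CPM at E9 (ratio 707, 95% counting interval 242 to 3432, adjusted p = 2.19e-08). In the 3 libraries of E13 KI-Het dermis, whose RNA selection differed, Hic1 had 275, 167 and 196 CPM on raw totals. The part of dermal cells in its epidermal level was not tested.

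Of 16 focal adhesion and integrin genes 1 rose (6.25%, against 4.77% over all genes tested) and 4 fell (25%, against 2.53%). With fewer libraries, 0 were higher without E13 replicate 2 and 2 were lower without E13 replicate 2. Tln2, a talin that links integrins to actin, had 201, 182 and 165 CPM at E13, against 567, 526 and 419.5 CPM at E9 (log2 fold change -1.46 ± 0.15, adjusted p = 3.15e-05). Of 33 chromatin regulators 4 rose (12.1%, against 4.77% over all genes tested) and 1 fell (3.03%, near the 2.53% over all). Leaving a library out, 3 were lower without E13 replicate 2. Chd7, a remodeller of neural crest and placodes, had 95.6, 148 and 158 CPM at E13, against 384, 339 and 418 CPM at E9 (log2 fold change -1.50 ± 0.20, adjusted p = 2.90e-04). The ages did not overlap in Tln2 or Chd7. Ahr, the aryl hydrocarbon receptor, had 106, 94.7 and 147 CPM at E13, against 20.5, 15.1 and 21.0 CPM at E9 (log2 fold change 2.62 ± 0.22, adjusted p = 6.49e-06), while Cyp1b1, one of its targets, had 9.99, 14.3 and 11.5 CPM at E13, against 59.4, 81.6 and 64.8 CPM at E9 (adjusted p = 0.0315), and was not called without E9 replicates 1, 2 or 4 or E13 replicates 1, 2 or 3 (adjusted p 0.0777 to 0.147), nor in the fit of all 12 libraries or without both E13 replicate 1 and E9 replicate 4 (adjusted p 0.177 to 0.247). Of 14 genes of this receptor and of redox defence 3 rose (21.4%, against 4.77% over all genes tested) and 2 fell (14.3%, against 2.53%). Of these genes, 0 were lower without E9 replicates 1, 2 or 4 or E13 replicates 1 or 2 and 1 was lower without E13 replicate 3. Cers3, a ceramide synthase of the skin barrier, had 90.7, 30.7 and 85.3 CPM at E13, against 3.06, 3.07 and 3.71 CPM at E9 (log2 fold change 4.39 ± 0.57, adjusted p = 2.48e-04). Every E13 library was above every E9 library for Ahr and Cers3 and below for Cyp1b1.

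Some of the widest differences lay in genes outside these lists, all without a count in 1 of the ages. Gria2, a glutamate receptor subunit, had 33.5, 79.4 and 35.3 CPM at E13 and no count at E9, at least 287-fold higher (adjusted p = 1.66e-05). Serpinb10, a protease inhibitor, had 28.2, 62.9 and 66.1 CPM at E13 and no count at E9, at least 294-fold higher (adjusted p = 5.32e-05). Pou2f3, a POU factor of epidermal differentiation, had 49.2, 20.2 and 9.42 CPM at E13 and no count at E9, at least 124-fold higher (adjusted p = 4.82e-04). Each was present in all 3 E13 libraries. Car4, a membrane carbonic anhydrase, had no count at E13 and 25.6, 34.9 and 80.1 CPM at E9, at least 241-fold lower (adjusted p = 4.60e-04). Ppp2r2c, a regulatory subunit of phosphatase 2A that overlaps an antisense gene, had no count at E13 and 32.3, 40.2 and 12.4 CPM at E9, at least 169-fold lower (adjusted p = 0.00388).

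Markers of other cells that the sort could hold were followed beside these results. In a bulk library fewer cells of a type and less RNA per cell cannot be told apart. Of 22 tested genes of dermal mesenchyme 6 were higher (27.3%, against 4.77% over all genes tested). The list summed to 2066 to 3380 CPM at E13, against 642 to 818 CPM at E9. Postn, the matrix protein periostin, had 548, 517 and 456 CPM at E13, against 20.8, 16.1 and 16.1 CPM at E9 (log2 fold change 4.83 ± 0.17, adjusted p = 1.09e-09). Dcn, the proteoglycan decorin, had 23.2, 102 and 52.8 CPM at E13 and no count at E9, at least 357-fold higher (adjusted p = 1.01e-04). Sparc, a secreted matrix protein, had 484, 502 and 615 CPM at E13, against 141, 122 and 205 CPM at E9 (log2 fold change 1.77 ± 0.19, adjusted p = 4.64e-05). The E13 libraries were the higher ones in all 3. The defining fibrillar collagens of dermis were highest in E13 replicate 2. Col1a1 had 59.7, 434 and 44.3 CPM at E13, against 71.6, 40.2 and 18.8 CPM at E9 (adjusted p = 0.418), and Col3a1 had 83.7, 406 and 81.8 CPM at E13, against 17.1, 14.4 and 36.4 CPM at E9 (adjusted p = 0.0641), and was called without E13 replicate 2 (log2 fold change 1.89, adjusted p = 0.0146). All E13 libraries were above all E9 libraries for Col3a1, but not for Col1a1. Of the dermal factors, Twist2 had 0, 7.002 and 3.51 CPM at E13, against 0, 0 and 0 CPM at E9 and Lum, the proteoglycan lumican, had 0, 13.3 and 6.47 CPM at E13, against 0, 0 and 0 CPM at E9, so that both were at 0 in E13 replicate 1 and throughout E9. In this list, 1 was lower without E13 replicate 2. E13 replicate 2 was also the highest in Dcn, whereas Postn was even across the 3 E13 libraries. On raw totals the 3 dermis libraries, whose RNA selection differed, held 727, 756 and 959.9 CPM of Postn and 894, 925 and 1085 CPM of Dcn. The part of dermal cells in the calls was not tested.

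Of neurons and neural tube 0 of 9 tested genes were called (3 at an unadjusted p under 0.05, 3 by DESeq2 and 2 by limma voom), of neural crest, melanocytes and Schwann cells 0 of 4 (0 at an unadjusted p under 0.05, 0 by DESeq2 and 0 by limma voom), of endothelium 0 of 6 (1 at an unadjusted p under 0.05, 1 by DESeq2 and 1 by limma voom) and of Merkel cells 0 of 5 (2 at an unadjusted p under 0.05, 2 by DESeq2 and 1 by limma voom). Over all genes tested 7.29% were called. Without E13 replicate 2, 1 neural and 1 Merkel gene were called lower. The summed levels were 72.9 to 167 CPM at E13, against 209 to 246 CPM at E9 for the neural list and 0.25 to 128 CPM at E13, against 17.0 to 67.5 CPM at E9 for the endothelial list. Skeletal muscle genes summed to 0.25 to 16.1 CPM at E13, against 38.7 to 323 CPM at E9, and cardiac and lateral plate genes to 0 to 139.5 CPM at E13, against 52.1 to 216 CPM at E9. Myh6, the heart myosin, was the called gene among them, with no count at E13 and 4.9, 2.87 and 49.2 CPM at E9 (adjusted p = 0.0324), and was not called without E9 replicate 4 or E13 replicates 2 or 3 (adjusted p 0.062 to 0.214), nor without both E13 replicate 1 and E9 replicate 4 or in the 6 libraries alone without E9 replicate 4 (adjusted p 0.211 to 0.272). Most of it was in E9 replicate 4. Without that library, 711 genes were called over the whole table, 481 higher and 230 lower. Macrophage genes summed to 41.2 to 53.02 CPM at E13, against 4.74 to 9.89 CPM at E9. Cd68, a lysosomal protein of macrophages and the called gene of the 2 tested, had 39.7, 43.5 and 22.0 CPM at E13, against 3.83, 6.13 and 8.16 CPM at E9 (log2 fold change 2.54 ± 0.69, adjusted p = 0.0366), and was not called without E9 replicates 1, 2 or 4 or E13 replicates 1 or 2 (adjusted p 0.0684 to 0.149), nor without both E13 replicate 1 and E9 replicate 4 (adjusted p = 0.122). The part of such cells in the results was not tested.

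Between E13 KO and E13 Het epidermis 2.2% of the genes tested were called. The same genes in E13 KO epidermis are given side by side, since the comparisons share the E13 Het libraries. Trp63 had 24.7, 26.6 and 22.5 CPM in E13 KO, against 574, 654 and 493 CPM in E13 Het (log2 fold change -4.54 ± 0.28, adjusted p = 1.54e-06), a check of the genotype label. Itgb4 had 81.4, 61.1 and 74.8 CPM in E13 KO, against 486, 397 and 298 CPM in E13 Het (log2 fold change -2.44 ± 0.22, adjusted p = 2.26e-05), and Krt5 had 47.4, 20.7 and 43.5 CPM in E13 KO, against 1428, 1104 and 1470.1 CPM in E13 Het (log2 fold change -5.17 ± 0.33, adjusted p = 9.36e-06). In KO both of these lay below every E13 Het library, and Krt5 was within the range of its E9 Het libraries or below it. Notch1 had 161, 102 and 171 CPM in E13 KO, against 882, 595 and 550.1 CPM in E13 Het (log2 fold change -2.22 ± 0.23, adjusted p = 6.80e-05), and Fzd10 had 10.2, 6.99 and 1.99 CPM in E13 KO, against 437, 363 and 288 CPM in E13 Het (log2 fold change -5.75 ± 0.52, adjusted p = 2.45e-04).

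Other genes were not called between the genotypes at E13. Gjb2 had 1031, 710.05 and 1396 CPM in E13 KO, against 1167, 1009 and 1365 CPM in E13 Het (log2 fold change -0.18 ± 0.21, adjusted p = 0.868). Postn had 509, 504 and 554 CPM in E13 KO, against 548, 517 and 456 CPM in E13 Het (log2 fold change 0.04 ± 0.14, adjusted p = 0.965), and Lin28a had 0.65, 2.14 and 0 CPM in E13 KO (log2 fold change 1.19 ± 0.83, adjusted p = 0.686). These KO libraries lay near the E13 Het levels and far from the E9 Het levels. Genes that fell between E9 and E13 Het did not share 1 pattern in KO. Mest had 1024, 872 and 1772 CPM in E13 KO, against 151, 148 and 127 CPM in E13 Het (log2 fold change 3.10 ± 0.23, adjusted p = 9.46e-06), and Sema3a had 715, 722 and 858 CPM in E13 KO, against 133, 137 and 128 CPM in E13 Het (log2 fold change 2.53 ± 0.14, adjusted p = 3.56e-07), within or above their E9 Het range. Msx1, in contrast, had 24.5, 7.99 and 9.39 CPM in E13 KO, against 8.49, 6.08 and 4.62 CPM in E13 Het (log2 fold change 1.15 ± 0.41, adjusted p = 0.231).

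**Figure D5:**
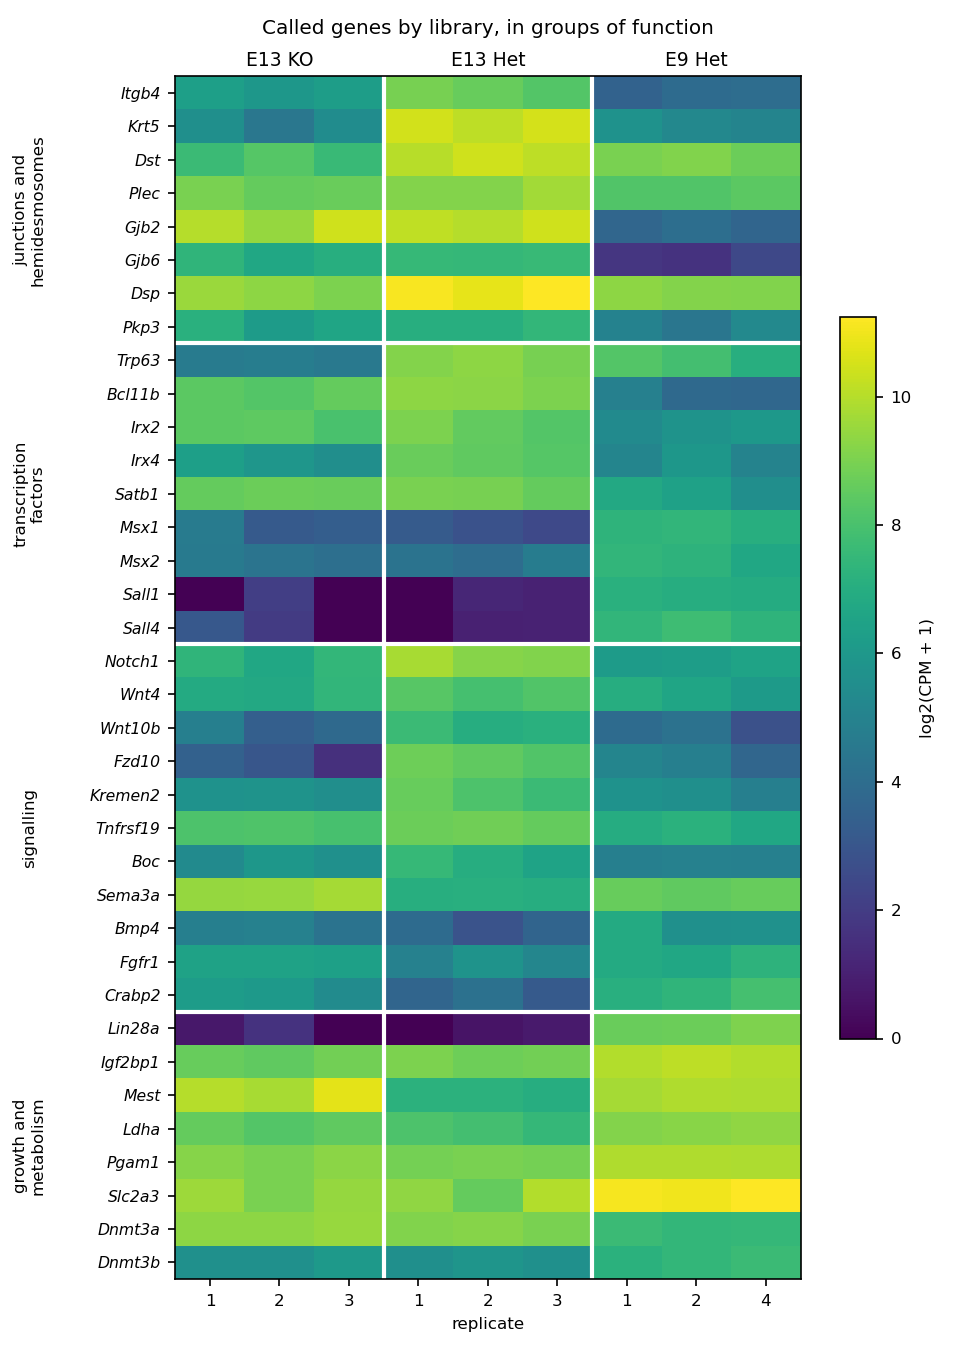
Level of genes called between E13 Het and E9 Het epidermis, as log2(CPM + 1), in the 3 libraries each of E13 KO, E13 Het and E9 Het epidermis, with rows in groups of function. Gjb2, Satb1, Lin28a and Slc2a3 look alike in E13 KO and E13 Het, while Krt5, Itgb4, Notch1, Fzd10, Mest and Sema3a differ between them.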

How the data were processed

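RNA of 6 epidermal libraries was compared. The deposited files hold raw counts of reads per gene, made with TopHat2, Bowtie2 and HTSeq on mm10, per the submitters' processing notes. Versions and the strand setting are not given in the sources used here. HTSeq summary lines (48.8 to 59.6% of all entries at E13, 56.9 to 63.8% at E9) were left out.

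Levels are CPM on TMM-scaled totals. Genes passing filterByExpr were tested with edgeR's quasi-likelihood test (edgeR 4.0.16, limma 3.58.1, R 4.3.3), robust, in 1 fit of 9 libraries (E13 Het, E9 Het and E13 KO epidermis), with Benjamini-Hochberg adjustment over all genes tested at 0.05. DESeq2 1.42.0 and limma voom were alternatives. The standard error is the log2 fold change over the root of F. A fold against a group without counts uses 3 counts over the group as floor. Intervals and floors cover counting error only. Replicates differed by more than sampling noise.

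Genes were named by rule: the markers and Trp63, the 15 with the largest fold and the 10 with the smallest p in each direction (mean of at least 10 CPM, no overlap of libraries), and up to 6 called members of each list, with members that define a list. A few genes that the rule names are not reported here. The members and lists were chosen with earlier results of these data known. Of 23432 symbols, 21570 matched RefSeq symbols and 1712 synonyms. On simulated counts, the test called 28% of genes changed by a log2 of 1, 56% at 2, 68% at 3 and 69.4% at 4. It also called 5 unchanged genes, with 12518 genes tested in all, changed ones among them. The changed genes, 49 or 50 at each size, were drawn from those with a mean of at least 5 CPM. All others were left unchanged. The rates need not hold for lower genes or where more genes change.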

Additional observations from a re-analysis of the deposited data

How the results depend on the processing

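The main fit of 9 libraries, which includes E13 KO epidermis, called 952 genes, 622 higher and 330 lower at E13. The 6 compared libraries alone called 914 (572 higher, 342 lower), of which 800 were also called in the main fit. DESeq2 called 1997 (1166 higher, 831 lower) and limma voom 1729 (996 and 733), while testing the fold against 2 called 249 (187 and 62). Leaving out 1 library called 569 to 812, with 404 to 515 higher and 163 to 351 lower. The lowest were 569 without E9 replicate 2 and 597 without E9 replicate 1. Fewer samples enter such fits. The higher share of calls was 65.3% in all, 56.8% without E13 replicate 3 and 75.1% with the fold tested against 2. RLE scaling, raw totals, other filters, the 6 libraries alone, all 12 and leaving out structural RNAs stayed within 1.5 times each count. Alternatives chosen after seeing the data called 730 without E13 replicate 1 and E9 replicate 4, and 673 from the 6 libraries alone without E9 replicate 4.

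The labels do not say whether equal replicate numbers mark paired samples. The same-numbered deviations of E13 Het and E9 Het correlated at 0.00266 and 0.0241. Those of E13 KO and E13 Het correlated at -0.0192, 0.204 and -0.0259, and those of E13 KO and E9 Het at 0.000529 and 0.00165. Pairs of unlike number gave -0.11 to 0.0837, below the 0.204 of replicate 2 of E13 KO and E13 Het. Such correlations cannot show that samples share no litter or batch. The fit with a replicate block called 576 (374 higher, 202 lower), of which 519 were also called without it.

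Of 184 named genes that were called, 119 kept the call whichever library was left out. In 3494 fits of these genes under all alternatives, 3002 kept direction and call, 492 lost the call and 0 changed direction. The genes were named because they were called in these libraries, and the alternatives reuse the same counts. A kept direction is therefore no independent support.

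With 3 libraries an age, low genes are limited by depth, and a group without counts gives a bound only.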

Other observations

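Genes outside the lists, chosen after their values were seen, add to the account. Celsr1, an atypical cadherin of planar cell polarity, had 950.2, 891 and 774 CPM at E13, against 197, 209 and 171 CPM at E9 (log2 fold change 2.18 ± 0.16, adjusted p = 2.15e-06). Celsr2, its relative, had 294, 246 and 192 CPM at E13, against 56.3, 55.6 and 46.0 CPM at E9 (log2 fold change 2.21 ± 0.24, adjusted p = 4.88e-05). Ryk, a Wnt co-receptor, had 284, 333 and 326 CPM at E13, against 91.7, 80.3 and 90.04 CPM at E9 (log2 fold change 1.85 ± 0.16, adjusted p = 6.50e-06). Each E13 library was above each E9 library in these 3. Egfr, the receptor of epidermal growth factor, had 406, 420.4 and 378 CPM at E13, against 123, 98.3 and 73.5 CPM at E9 (log2 fold change 2.03 ± 0.22, adjusted p = 5.32e-05). Its inhibitor Lrig1 had 375, 399.8 and 299 CPM at E13, against 20.5, 23.9 and 42.3 CPM at E9 (log2 fold change 3.64 ± 0.39, adjusted p = 1.97e-04). Nr3c1, the glucocorticoid receptor, had 155, 154 and 206 CPM at E13, against 28.6, 20.9 and 21.3 CPM at E9 (log2 fold change 2.86 ± 0.28, adjusted p = 2.53e-05), again with no overlap.

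Other genes fell. Nr6a1, a nuclear receptor of early embryos, had 26.5, 25.0 and 20.9 CPM at E13, against 139, 175 and 201 CPM at E9 (log2 fold change -2.83 ± 0.30, adjusted p = 4.64e-05). Meis1, a homeobox cofactor of Hox proteins, had 30.0, 64.9 and 81.3 CPM at E13, against 306, 292 and 305 CPM at E9 (log2 fold change -2.35 ± 0.28, adjusted p = 1.33e-04). Gpc3, a glypican of fetal growth, had 323, 332 and 518 CPM at E13, against 982, 1004 and 986 CPM at E9 (log2 fold change -1.34 ± 0.17, adjusted p = 2.33e-04). The ages did not overlap in any of them. Ccnd1, cyclin D1, had 30.0, 58.0 and 39.9 CPM at E13, against 109, 138 and 118 CPM at E9 (log2 fold change -1.51 ± 0.28, adjusted p = 0.00414), and Fn1, fibronectin, had 174, 444 and 289.8 CPM at E13, against 1478, 1424 and 1459 CPM at E9 (log2 fold change -2.26 ± 0.37, adjusted p = 0.0064), and was not called without E13 replicate 3 (adjusted p = 0.0535).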
